A study of Homo sapiens with 6 samples.

Results

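DNA replication is run by a set of proteins that most proliferating cells make together, and 50 genes for such proteins were followed here in ONS-76 cells, an established human medulloblastoma cell line, after knockdown of the histone demethylase KDM1A. The genes were taken by name: the MCM helicase, the origin recognition complex (ORC), the factors that load and start the helicase, the polymerases, the clamp and its loader, the single-strand binding protein RPA, the enzymes that finish the lagging strand, the enzymes of deoxynucleotide supply, the chromatin assembly factors with UHRF1, and the E cyclins. This choice was made with earlier results of these data known. Each gene was represented by the Affymetrix U133 Plus 2.0 probe set that names it alone and that was brightest on average over the 6 arrays. All 50 had such a probe set, out of 19775 genes on the array that did, and 94 probe sets named 1 of them.

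The siKDM1A group comprised 3 arrays of ONS-76 cells transfected with a siRNA, and the control group comprised 3 arrays of ONS-76 cells that received the transfection reagent alone. Each array came from its own transfection, and the labels give a harvest time of 48 h. The paper gives a later time for these arrays. The treatment field of the labels names the target KDM5A and other labels name LSD1, a synonym of KDM1A. On the arrays KDM1A measured 9.50, 9.57 and 9.49 in the mock-transfected cells and 6.25, 6.34 and 6.31 in the siKDM1A cells, in log2 units of the RMA values that the authors deposited. It fell by 3.22 ± 0.082 (standard error), to 10.7% of the control level (limma adjusted p = 7.1e-07), whereas KDM5A changed by -0.27 ± 0.090 (adjusted p = 0.14). A single siRNA and a single cell line were used and the controls carried no siRNA, so loss of KDM1A and other effects of siRNA delivery cannot be told apart.

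Before S phase, ORC binds origins and, with CDC6 and CDT1, loads the MCM helicase onto DNA in an inactive form. CDC45, the GINS complex and MCM10 then turn it into a moving helicase, RPA covers the exposed single strands, polymerase alpha with primase lays down primers, and polymerases delta and epsilon extend them on the sliding clamp PCNA, which the RFC complex loads. Ribonucleotide reductase, thymidylate synthase and thymidine kinase supply deoxynucleotides. Many of these genes are known targets of E2F transcription factors, are transcribed mainly around the G1/S boundary and are abundant in rapidly dividing tumours such as medulloblastoma.

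Of the 50 genes, 32 (64%) fell in the siKDM1A cells and 0 rose by limma, a linear model across all probe sets with p-values adjusted by the Benjamini-Hochberg method at a threshold of 0.05. Among all 19775 genes with a probe set of their own, 5.46% fell and 3.45% rose, and among the 13180 of them that lay above the median of all values, as all 50 replication genes did, 7.91% fell and 4.59% rose. The median log2 fold change of the 50 was -0.53, a level of 69.5% of the control, against 0.0069 over all genes and -0.022 over the brighter ones. The fold changes were negative for 47 genes and positive for 3 (ORC2, ORC5 and CCNE1), from -0.93 for MCM5 to 0.23 for ORC2, with standard errors of 0.079 to 0.155. At an unadjusted threshold of the same size limma placed 41 genes lower and 0 higher, and a plain test of each probe set, the methods' t-test, placed 40 lower and 0 higher. Over all genes these shares were 14.4% and 9.75% by limma and 13.7% and 9.21% by the methods' t-test.

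**Figure D1:**
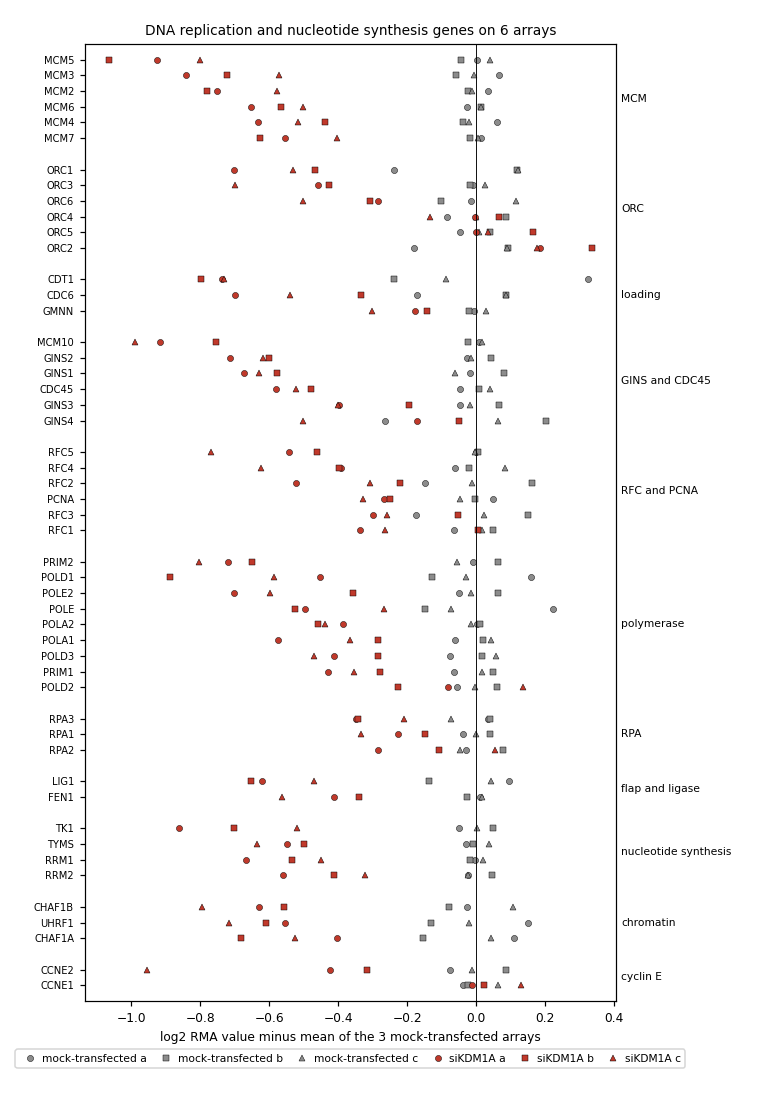
Each point is 1 array's log2 RMA value of a gene minus the mean of the 3 mock-transfected arrays, for the 50 genes grouped by complex, with grey symbols for the mock-transfected arrays and red symbols for the siKDM1A arrays. The red points lie left of the grey ones for 41 genes, and right of them for ORC2.

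The decrease was seen on each siKDM1A array. The 3 siKDM1A arrays lay below the control mean for 48, 45 and 45 of the 50 genes, with median deviations of -0.51, -0.42 and -0.50, while the medians of the 3 control arrays were -0.026, 0.012 and 0.0066. For 41 genes (82%) all siKDM1A values lay under all control values, for 1 gene (ORC2) all lay above, and for 8 the groups overlapped. Over all genes 18.1% lay wholly lower. With 1 array left out the count of 32 was lower, at 21 without control replicate b and 17 without control replicate c. Of the 32 genes, 17 kept their call whichever array was left out. Fewer arrays also weaken the test for every other gene. The share of all genes called in such fits, here and below, is not given. The lower counts therefore need not be particular to these genes or to those arrays. The methods' t-test, which does not share variance between probe sets, called after adjustment 10 of the 50 lower, against 1.26% of all genes. Those 10 were MCM2, MCM5, MCM6, CDC45, GINS1, GINS2, MCM10, POLA2, PRIM2 and TYMS. RMA sets the arrays to a common intensity distribution, so only shifts relative to the other genes are measured, and in RNA from whole cultures fewer cells in S phase cannot be told apart from less RNA per cell.

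**Figure D2:**
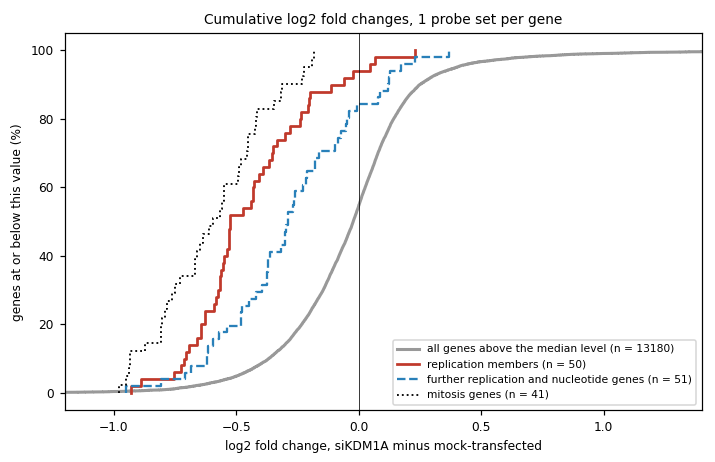
Cumulative share of genes (y axis, percent) at or below a given log2 fold change, siKDM1A minus mock-transfected (x axis, 1 probe set per gene), for the 50 replication genes, 51 further replication and nucleotide genes, 41 mitosis genes and the 13180 genes above the median level. The curve of the 50 genes reaches its midpoint at -0.53, left of all brighter genes (-0.022) and of the further list (-0.29), and right of the mitosis genes (-0.59).

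As E2F sites are a known common feature of replication gene promoters, the 250 bases before each RefSeq transcript start (GRCh38.p14) were searched on both strands for 6 strings of 8 letters of the E2F type: TTTCGCGC, TTTGGCGC, TTTCCCGC, TTTGGCGG, TTTCCCGG and TTTCGCGG. A window was at hand for 43 of the 50 genes, and 19 of those (44.2%) held at least 1 string. The same held for 14 of 29 genes that fell (48.3%) and 5 of 14 that did not pass the test (35.7%), compared with 1462 of 27305 genes overall (5.35%) and 7.80% of the 14579 genes whose windows were at least 56.5% G and C, a level that most of the replication genes reached. Of the further replication and nucleotide genes, 10 of 42 with a window held a string (23.8%). Of the mitosis genes, 4 of 35 did (11.4%). The median log2 fold change was -0.29 for the further genes and -0.59 for the mitosis genes, against -0.53 for the 50 genes. Whether the strings go along with the decrease was not tested. The strings can overlap each other and a single stretch can hold several. A match describes letters only, not a bound site. The following stretches are examples that carry matches of genes discussed below. Matches were also found for MCM7, ORC3, POLE2, UHRF1, CDC45, POLA1, RFC1 and GMNN, whose stretches are not shown. They are RefSeq GRCh38.p14 sequence upstream of the start, written 5′ to 3′ on the strand of the gene, with the matching letters in capitals.
MCM6, chr2:135876492-135876559, minus strand: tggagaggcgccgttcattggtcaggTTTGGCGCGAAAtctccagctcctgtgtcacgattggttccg
MCM3, chr6:52284879-52284946, minus strand: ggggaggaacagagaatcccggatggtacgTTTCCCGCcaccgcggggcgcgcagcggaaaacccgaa
CDT1, chr16:88803732-88803788, plus strand: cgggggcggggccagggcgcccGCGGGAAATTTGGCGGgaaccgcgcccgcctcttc
CDC6, chr17:40287821-40287878, plus strand: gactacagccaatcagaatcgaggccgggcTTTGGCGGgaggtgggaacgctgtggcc
GINS2, chr16:85688955-85689015, minus strand: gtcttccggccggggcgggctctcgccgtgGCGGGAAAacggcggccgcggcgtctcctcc
POLA2, chr11:65261908-65261961, plus strand: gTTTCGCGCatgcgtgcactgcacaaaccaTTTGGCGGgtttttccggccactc
LIG1, chr19:48170421-48170488, minus strand: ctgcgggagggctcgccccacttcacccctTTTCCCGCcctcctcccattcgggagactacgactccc
TYMS, chr18:657584-657651, plus strand: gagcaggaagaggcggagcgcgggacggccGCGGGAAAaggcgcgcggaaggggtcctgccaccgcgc
The next 3 are from genes that did not pass the test, and they hold the same kind of string.
PCNA, chr20:5126644-5126711, minus strand: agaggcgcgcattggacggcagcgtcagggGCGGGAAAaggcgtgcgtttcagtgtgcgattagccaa
POLE, chr12:132687343-132687390, minus strand: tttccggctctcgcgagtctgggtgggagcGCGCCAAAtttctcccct
RFC3, chr13:33818064-33818131, plus strand: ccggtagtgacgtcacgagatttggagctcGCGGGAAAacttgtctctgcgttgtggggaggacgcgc
The MCM6 stretch holds 2 overlapping matches of the 4 in its window, and the CDT1 stretch holds 2 matches side by side on opposite strands.

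All 6 subunits of the MCM2-7 helicase, the ring that unwinds DNA at the fork, fell, with a median log2 fold change of -0.64. MCM5 measured 9.39, 9.35 and 9.43 in the controls and 8.46, 8.32 and 8.59 in the siKDM1A cells. With group means of 9.39 ± 0.04 and 8.46 ± 0.13 (SD, n = 3), it fell by 0.93 on the log2 scale, to 52.5% of the control (95% interval of the log2 change -1.14 to -0.72, limma adjusted p = 0.00078). The values of MCM3 were 10.67, 10.54 and 10.60 against 9.76, 9.88 and 10.03, a drop to 61.1% of the control (adjusted p = 0.0033). For MCM2 they were 10.65, 10.59 and 10.60 against 9.86, 9.83 and 10.04, a drop to 61.5% (adjusted p = 0.0024). In none of these did the groups overlap. MCM6, MCM4 and MCM7 changed by -0.57, -0.53 and -0.53, and MCM7 lost its call without control replicate c, which left 5 of 6. The further probe sets of MCM4 gave -0.65, -0.38, -0.41 and -0.03, none of them called (limma adjusted p = 0.054, 0.41, 0.23 and 0.91). Those of MCM5, MCM6 and MCM7 gave -0.76, -0.89 and -0.49 and were called lower. By the methods' t-test 3 of 6 passed, and MCM3, MCM4 and MCM7 did not.

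Origin recognition was divided. Of the 6 ORC subunits, which mark where replication can start, 2 fell, and the other 4 did not pass the test. ORC1, the subunit whose level is known to vary with the cell cycle, measured 7.05, 7.41 and 7.41 in the controls and 6.59, 6.83 and 6.76 in the siKDM1A cells, a decrease of 0.57 ± 0.120 to 67.5% of the control (limma adjusted p = 0.025). ORC3 fell by 0.53, from 8.95, 8.94 and 8.99 to 8.50, 8.53 and 8.26 (adjusted p = 0.013). In both the 3 siKDM1A values lay under every control value. ORC2, by contrast, measured 7.90, 8.18 and 8.17 against 8.27, 8.42 and 8.26, the sole gene of the 50 with all siKDM1A values above all control values, at a log2 fold change of 0.23 and an adjusted p of 0.27. Its other probe set gave -0.25 (adjusted p = 0.24), so the arrays give no settled direction for it. ORC4 and ORC5 differed by -0.02 (95% interval -0.23 to 0.18) and 0.07 (-0.13 to 0.26), with overlapping groups, and ORC6 by -0.36 (adjusted p = 0.069). Without control replicate b or c, 0 subunits passed, and without siKDM1A replicate a or c ORC3 alone did. By the methods' t-test 0 of 6 passed after adjustment, and 3 were lower without it.

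CDC6 and CDT1, which bring the helicase to ORC, both fell, while geminin (GMNN), the inhibitor of CDT1, did not pass the test. CDT1 measured 9.18, 8.61 and 8.76 in the controls and 8.12, 8.05 and 8.12 in the siKDM1A cells. It fell by 0.75 ± 0.136, to 59.3% of the control (limma adjusted p = 0.012), with the wider error coming from the controls (SD 0.291, against 0.038). CDC6 fell by 0.52 to 69.5% (adjusted p = 0.033), a call that was lost without siKDM1A replicate a or c or control replicate b or c, leaving 1 of 3. GMNN measured 11.20, 11.18 and 11.23 against 11.02, 11.06 and 10.90. Its groups did not overlap either, but the difference of -0.21 (95% interval -0.40 to -0.02) had an adjusted p of 0.22. The methods' t-test placed all 3 lower without adjustment and 0 after it.

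Of the 6 factors that activate the loaded helicase, CDC45, GINS1, GINS2 and MCM10 fell, and this count of 4 was the same on leaving out any array and by the methods' t-test. MCM10, a scaffold of the forming fork, measured 9.42, 9.39 and 9.43 in the controls and 8.50, 8.66 and 8.42 in the siKDM1A cells, a decrease of 0.89 to 54.1% of the control (95% interval -1.09 to -0.68, limma adjusted p = 0.0008). After MCM5 this was the second largest change of the 50. GINS2 measured 9.56, 9.63 and 9.57 against 8.88, 8.99 and 8.97, and fell to 64.0% (adjusted p = 0.0025). GINS1 went from 10.96, 11.06 and 10.92 to 10.31, 10.40 and 10.35, or 64.8% of the control (adjusted p = 0.0033). The spread within each group was small beside these steps. CDC45 fell by 0.53 to 69.4%. The other GINS subunits differed in size: GINS3 changed by -0.33 (adjusted p = 0.075), and GINS4, at 7.45, 7.91 and 7.77 against 7.54, 7.66 and 7.21, by -0.24 (95% interval -0.58 to 0.09, adjusted p = 0.44) with overlapping groups. A further probe set of GINS3 fell by 0.42 (adjusted p = 0.037). Of the further probe sets of GINS2, 1 with a mean of 4.82, under the median of all values, fell by 0.49 (adjusted p = 0.033). The other gave 0.22 (adjusted p = 0.24).

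The polymerases that copy the DNA fell in 7 of 9 subunits, with a median log2 fold change of -0.43. PRIM2, the large primase subunit, measured 8.21, 8.28 and 8.17 in the controls and 7.50, 7.57 and 7.42 in the siKDM1A cells, and fell by 0.72 to 60.6% (limma adjusted p = 0.0018). POLD1, the catalytic subunit of polymerase delta, went from 8.81, 8.53 and 8.62 to 8.20, 7.77 and 8.07, a decrease of 0.64 ± 0.128 (adjusted p = 0.02). Neither gene's groups overlapped. POLE2, POLA2, POLA1, POLD3 and PRIM1 changed by -0.55, -0.43, -0.41, -0.39 and -0.35. POLE, the catalytic subunit of polymerase epsilon, had nearly the same fold change as POLA2, -0.43, but a standard error of 0.120 against 0.079, and did not pass (adjusted p = 0.075). POLD2, the accessory subunit of polymerase delta, measured 9.12, 9.24 and 9.17 against 9.10, 8.95 and 9.31, a difference of -0.06 with an interval of -0.30 to 0.18 and overlapping groups. The count of 7 depended on single arrays: it was 2, 2 and 1 without control replicates a, b and c, and 3 and 4 without siKDM1A replicates a and c. PRIM2 was called in all of these. The methods' t-test called 2 of 9, PRIM2 and POLA2.

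**Figure D3:**
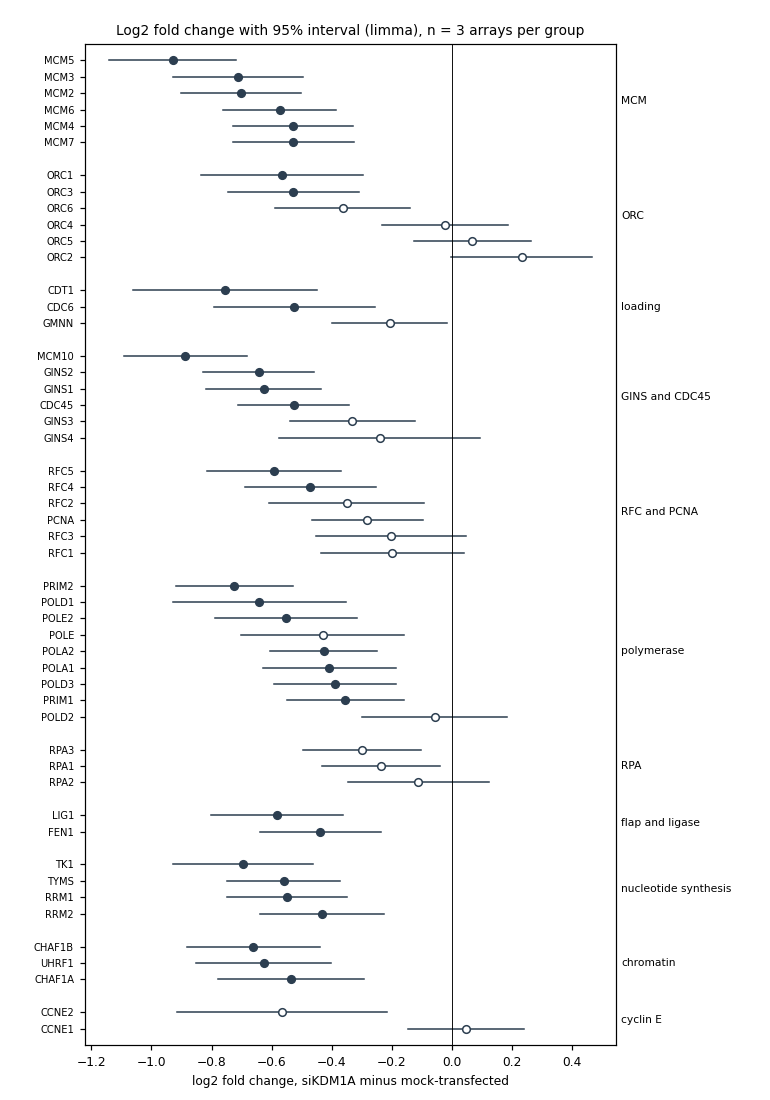
Log2 fold change (siKDM1A minus mock-transfected, x axis) of the 50 genes with its 95% interval from limma, 3 arrays per group, with filled points for adjusted p under 0.05. All 6 MCM genes are filled, all 3 RPA genes are open, and in ORC the intervals run from wholly below 0 for ORC1, ORC3 and ORC6 to reaching above 0 for ORC4, ORC5 and ORC2.

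Of PCNA and the 5 subunits of its loader, RFC4 and RFC5 fell and the others did not pass the test. RFC5 measured 9.37, 9.37 and 9.36 in the controls and 8.82, 8.91 and 8.60 in the siKDM1A cells, a decrease of 0.59 to 66.4% (limma adjusted p = 0.0089). RFC4 fell by 0.47 to 72.1% (adjusted p = 0.023), and its call was lost without siKDM1A replicate c or any 1 of the controls, which left 1 of 6. PCNA itself measured 12.46, 12.40 and 12.36 against 12.14, 12.16 and 12.08. These groups did not overlap, and the difference of -0.28 (95% interval -0.47 to -0.10) had an adjusted p of 0.086. RFC2, RFC3 and RFC1 differed by -0.35, -0.20 and -0.20 (adjusted p = 0.12, 0.38 and 0.36). The other 2 probe sets of RFC5 gave -0.30 and 0.31, neither called. After adjustment the methods' t-test called 0 of 6, and without it 3 were lower.

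For RPA, the trimer that protects single-stranded DNA, 0 of 3 subunits passed by limma or by the methods' t-test, though 2 of 3 did without adjustment by either. RPA3 measured 11.34, 11.34 and 11.23 in the controls and 10.95, 10.96 and 11.09 in the siKDM1A cells, a difference of -0.30 with an interval of -0.49 to -0.10 (limma adjusted p = 0.087). RPA1 and RPA2 differed by -0.24 (-0.43 to -0.04) and -0.11 (-0.35 to 0.12). A second probe set of RPA1 fell by 0.42 (adjusted p = 0.034).

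LIG1 and FEN1, the ligase and the flap endonuclease that finish the lagging strand, both fell. LIG1 measured 8.21, 7.98 and 8.16 in the controls and 7.50, 7.47 and 7.65 in the siKDM1A cells, a decrease of 0.58 to 66.8% of the control (limma adjusted p = 0.0092), and FEN1 fell by 0.44 to 73.8% (adjusted p = 0.022). Neither overlapped between groups, but without control replicate c 0 of these 2 calls was left, and leaving out control replicate a or b or siKDM1A replicate a or c left LIG1 alone. By the methods' t-test both were lower without adjustment and 0 after it.

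The 4 enzymes of deoxynucleotide supply all fell, by a median of -0.56 on the log2 scale. TK1, the thymidine kinase of the salvage route, measured 9.63, 9.73 and 9.68 in the controls and 8.82, 8.98 and 9.16 in the siKDM1A cells, a decrease of 0.69 to 61.8% of the control (limma adjusted p = 0.005). TYMS, which makes thymidylate de novo and is the target of 5-fluorouracil, went from 12.48, 12.50 and 12.54 to 11.96, 12.01 and 11.87, or 67.8% (adjusted p = 0.005). Every siKDM1A value of both lay under every control value. The ribonucleotide reductase subunits RRM1 and RRM2 fell by 0.55 and 0.43, to 68.3% and 74.2%. Of these enzymes RRM2 alone lost its call in leave-one-out fits, which it did with each control array and with siKDM1A replicates a and b left out in turn. The methods' t-test called 1 of 4, TYMS, and the calls of RRM1, TK1 and RRM2 were lost.

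The chromatin factors that follow the fork fell in 3 of 3. CHAF1B, a subunit of the CAF-1 complex that places histones on new DNA, measured 7.50, 7.45 and 7.63 in the controls and 6.90, 6.97 and 6.73 in the siKDM1A cells, a decrease of 0.66 to 63.3% of the control (limma adjusted p = 0.0049). UHRF1, which guides maintenance DNA methylation, went from 10.17, 9.89 and 10.01 to 9.47, 9.42 and 9.31, or 64.8% (adjusted p = 0.007). The groups of both were apart. CHAF1A, the large CAF-1 subunit, fell by 0.54 (adjusted p = 0.02), a call lost without siKDM1A replicate b or control replicate a or c. With the methods' t-test 0 of 3 passed after adjustment, though all 3 were lower without it.

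The E cyclins, partners of CDK2 at entry into S phase, did not pass the test by limma or by the methods' t-test, and 1 of the pair did without adjustment by either. CCNE1 measured 8.63, 8.65 and 8.73 in the controls and 8.66, 8.70 and 8.80 in the siKDM1A cells. These values overlapped, with a difference of 0.05 and an interval of -0.15 to 0.24. CCNE2 measured 9.71, 9.87 and 9.77 against 9.36, 9.47 and 8.83. Its groups did not overlap, and its difference of -0.57 carried the largest standard error of the 50 (0.155), since siKDM1A replicate c lay below the other two (adjusted p = 0.069). Without siKDM1A replicate b it was called lower.

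Where a gene had several probe sets, most of the others pointed the same way. For 28 of the 50 genes there were 44 further probe sets, of which 15 fell, 0 rose and 29 were not called, with 37 negative and 7 positive fold changes. Together with the representing ones, 47 of 94 probe sets fell and 0 rose, against 3.73% and 2.18% of all 54613 tested. Of the 27 further probe sets of genes that fell, 13 fell as well. Among the 14 that were not called, 3 had a mean under the median of all values. MCM6 gave -0.89 on its second probe set, whose mean of 4.31 lay under the median of all values (5.115), beside -0.57 on its brightest. TK1 gave -0.74 beside -0.69. CDT1, ORC6, RFC1 and CHAF1A were represented by a type of probe set (_x_at) that can share sequence with other transcripts.

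**Figure D4:**
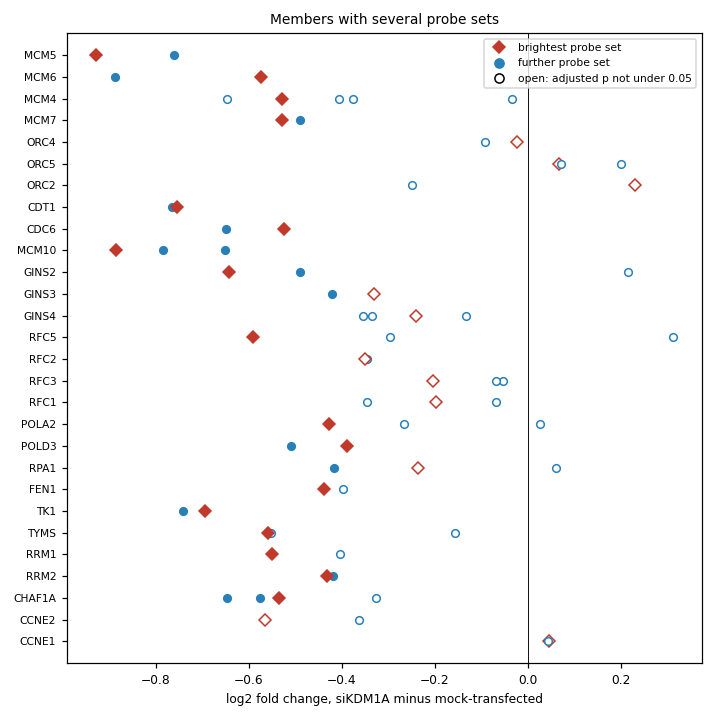
Log2 fold change (siKDM1A minus mock-transfected, x axis) of every probe set of the 28 genes with more than 1, with diamonds for the brightest, circles for the others and open symbols for adjusted p not under 0.05. Most lie below 0, and ORC2, GINS2, RFC5, POLA2 and RPA1 have probe sets on both sides.

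A further list of 53 genes covered other helicases, fork protection, checkpoint adaptors and histone supply, and also the wider synthesis of purines, pyrimidines and deoxynucleotides. Of 51 measured, 12 (23.5%) fell and 0 rose by limma, with a median log2 fold change of -0.29 and 43 negative values. Over all genes 5.46% fell and 3.45% rose. Without adjustment 32 were lower and 1 was higher by limma, against 14.4% and 9.75% of all genes. Sorted by role, a division made after the values were seen, 11 of 33 replication and chromatin genes fell (median -0.37). Of 18 nucleotide synthesis genes 1 fell (median -0.19), namely DUT, which clears dUTP. That share of 5.56% was close to the share over all genes. Yet 14 of the 18 fold changes were negative. In 8 of the 18 (44.4%) all siKDM1A values lay under all control values, against 18.1% of all genes. The largest decreases among those called were in MCM9, a helicase of recombination repair, WDHD1, a link between helicase and polymerase alpha, TOP2A, the topoisomerase that untangles DNA, TIMELESS of the fork protection complex, and DSCC1 of an alternative clamp loader. MCM9 went from 6.31, 6.25 and 6.43 to 5.41, 5.40 and 5.33, a decrease of 0.95 to 51.8% of the control (adjusted p = 0.00046). WDHD1, TOP2A, TIMELESS and DSCC1 fell by 0.81, 0.71, 0.68 and 0.62. The further probe sets of MCM9, TOP2A, TIMELESS and DSCC1 were not called, while the other 2 of WDHD1 fell as well. Without control replicate c the count was 7, without control replicate b it was 8. The methods' t-test called 3 lower, against 1.26% of all genes. The difference between this list and the 50 genes was not tested.

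Mitosis genes, which cells express after replication, fell as well. Of 41 measured, 31 fell and 0 rose by limma, against 5.46% and 3.45% of all genes. Their median log2 fold change was -0.59, with 41 negative values. Without adjustment 37 were lower and 0 higher by limma, and 38 and 0 by the methods' t-test. After adjustment the methods' t-test called 18 lower, against 1.26% of all genes. Over all genes the unadjusted shares were, as above, 14.4% lower and 9.75% higher by limma. NDC80 and NUF2 of the kinetochore, SPAG5 of the spindle, CENPF of the centromere and KIF20A, a kinesin of cytokinesis, fell by 0.98, 0.93, 0.95, 0.94 and 0.93. KIF20A, for one, measured 10.31, 10.36 and 10.44 in the controls against 9.44, 9.46 and 9.41. Decreases were thus not particular to genes of S phase, and the difference between the lists was not tested.

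The arrays themselves were alike, with medians of 5.09 to 5.16 and pairwise correlations of 0.991 to 0.998. Of 13 neural markers 7 were above the median of all values on all arrays, among them ZIC1, ZIC2, SOX2 and MAP2, while OTX2, ATOH1, SYP and GFAP were not. ZIC1, ZIC2 and SOX2 fell by 0.39, 0.40 and 0.43 and MAP2 rose by 1.12, and the summed level of the list, to which TUBB3 and SOX2 contribute most, was 12.55 to 12.58 on the control arrays and 12.29 to 12.39 on the siKDM1A arrays, with a median log2 fold change of -0.02. Of 7 mesenchymal markers 5 had positive fold changes (median 0.08), while their summed level, nearly all of it VIM, was 13.08 to 13.11 against 12.89 to 13.01. All 4 epithelial markers had positive fold changes (median 0.21), with a summed level of 12.38 to 12.47 against 12.59 to 12.75. On the brightest probe sets 0 of either list were called, but 2 further probe sets of COL1A1 were called higher. None of 3 immune markers was above the median on all arrays. The part of these shifts in the replication results was not tested.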

How the data were processed

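RNA of 3 siKDM1A and 3 mock-transfected ONS-76 cultures was hybridised to Affymetrix U133 Plus 2.0 arrays. Per the labels and methods, the authors used RMA in Partek (no version in the sources read here). Their deposited values are log2 and cover 54675 probe sets. No depth applies to arrays, and 3 arrays per group limit the precision. After 62 control probe sets were left out, 54613 entered a limma fit (version 3.58.1, R 4.3.3) of siKDM1A minus control with an untrended eBayes prior, and two-sided p-values were adjusted by Benjamini-Hochberg. Of these, 41091 name 1 gene in the platform annotation, 1801 several and 11721 none, and only the first were used. Counts per gene take the probe set with the highest mean. The scripts were tested on simulated data.

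The 50 genes and all lists were chosen with earlier results of these data known. Values from all 6 arrays were given for the called genes with the largest changes (up to 3 per complex, 16 in all), for ORC2, and for 1 gene per complex that was not called. Values of ORC3, RPA3, CCNE1 and CCNE2 were added after they were seen. Alternatives were cyclic loess, median centring, dropping probe sets under the median, a trended robust prior, the replicate letter as a block, other choices of probe set, leaving out each array, and the methods' one-way ANOVA, which with 2 groups is a t-test with pooled variance and is called the methods' t-test. The paper states no p-value adjustment for that ANOVA and took further only genes with a 3-fold change. Here its p-values were adjusted by Benjamini-Hochberg and no fold threshold was set. The largest change of the 50 genes, MCM5 at 52.5% of the control, was smaller than 3-fold. The 250 bases before RefSeq starts were searched by exact match in Python 3.11.15. No window was at hand for POLD3, GINS4, RPA2, MCM4, MCM5, RPA3 and CCNE2.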

Additional observations from a re-analysis of the deposited data

How the results depend on the processing

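Of the 50 replication genes, 32 were lower. That count was 33 with each array centred on its median, 29 after cyclic loess, 37 among brighter probe sets only, 36 with a trended robust prior, 36 with a gene's probe sets averaged, 23 of the 40 genes left without _x_at and _s_at probe sets, and 10 with the methods' t-test. Leaving out 1 array gave 17 to 30, and 0 genes were higher under every one of these settings. Apart from the methods' t-test, the share of all genes called under each alternative setting is not given. A higher or lower count, here and for the lists below, therefore need not be particular to these genes. The methods' t-test called 3 genes of the further replication and nucleotide list (12 by limma) and 18 mitosis genes (31). Leaving out 1 array gave 7 to 13 and 23 to 32. After cyclic loess 1 gene of that list (ASF1A) was higher. The median log2 fold change of -0.53 was -0.47 after cyclic loess, -0.43 with probe sets averaged, -0.42 without _x_at and _s_at probe sets, and -0.51 to -0.48 on leaving out 1 array. The direction turned for ORC4 after cyclic loess (0.028), and on leaving out 1 array (-0.069 to 0.030), for POLD2 on leaving out 1 array (-0.15 to 0.026), for ORC2 with the mean of its probe sets (-0.00865) and for GINS2 without its _s_at probe sets (0.22), all at an adjusted p above 0.05. The cause of these turns was not tested. Whether arrays with the same replicate letter belong together could not be settled. Deviations of same-lettered arrays correlated at 0.11, 0.23 and -0.13, and for letter b alone were both arrays each other's best match. With 3 arrays per group such correlations can neither show nor exclude a pairing. With the letter as a replicate block, 28 of the 50 genes, 12 genes of the further list and 31 mitosis genes were lower, again without the share over all genes.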
